A study of Rattus norvegicus with 48 samples.

Results

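The genes described here are 129 rat protein-coding genes chosen by a low expression level. They were at or above it in every vehicle-treated slice library of fibrotic liver. In every library of slices given SB525334 they were below it. The level used was 1 CPM, where CPM is the count of a gene divided by the total of its library and multiplied by 1000000. The 129 members came from 14418 genes in the authors' table of expressed protein-coding genes, out of 32883 genes in the count table, and 12385 of the 14418 met the vehicle condition. Since the members were selected on the measured CPM of the SB525334 and vehicle libraries, every difference between these 2 groups is given below as a description, without a test.

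The study profiled precision-cut liver slices, thin slices of intact tissue kept alive in culture, by RNA sequencing. Its 48 libraries fall into 5 groups: slices of sham-operated rats with vehicle (Sham_veh, 9 libraries), and slices of rats with a ligated bile duct (BDL) with vehicle (BDL_veh, 10), Sora (BDL_Sora, 10), Nint (BDL_Nint, 10) or SB525334 (BDL_SB525334, 9). Sora and Nint are short forms in the labels, read here as sorafenib and nintedanib. The deposited sample sheet names the SB525334 group by another compound code in all 9 of its libraries, so the identity of that compound rests on the labels. Strain, sex, age, dose, exposure time and the number of animals were not given in the sources used here, and libraries of a group may share an animal. The p-values below therefore measure only the spread between libraries, which may be technical.

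Ligation of the bile duct blocks bile flow and is a standard model of cholestatic liver fibrosis, in which stellate cells and portal fibroblasts turn into matrix-producing myofibroblasts and the bile ducts proliferate. Transforming growth factor beta drives much of this change: it binds a type II receptor, which activates the type I receptor kinase ALK5, which phosphorylates Smad transcription factors. SB525334 is an inhibitor of the ALK5 kinase. Sorafenib and nintedanib are multikinase inhibitors that act on receptor tyrosine kinases such as those for platelet-derived and vascular endothelial growth factors, and sorafenib also inhibits RAF kinases.

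The files name genes by Ensembl identifier only, and 0 of these identifiers could be paired with a symbol here. The members are therefore described by their levels, 4 of them by identifier, and no pathway, cell type or protein role is assigned to any of them. For the same reason, the labelled tissue could not be checked against its marker genes. In bulk tissue of this kind, fewer cells of a type and less RNA per cell cannot be told apart.

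Library totals ran from 12249470 to 29596987 counts, so that 1 CPM stood for 12.2 to 29.6 counts, and for 12.6 to 15.5 counts in the SB525334 libraries. A count of 3, taken as the detection floor, corresponded to 0.101 to 0.245 CPM. CPM is not corrected for gene length, so levels are compared between groups for the same gene and not between genes as amounts of RNA.

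Most members were genes of low count in the vehicle libraries. Their vehicle means ran from 1.25 to 36.15 CPM with a median of 2.38 CPM, against a median of 27.9 CPM over the 12385 genes that met the vehicle condition. By vehicle mean, 34 members lay under 2 CPM, 74 from 2 to 5 CPM, 11 from 5 to 10 CPM and 10 at 10 CPM or more. These were 34 of 181, 74 of 1239, 11 of 1421 and 10 of 9544 eligible genes. A gene near the 1 CPM level needs a smaller change to meet the rule, and the share of eligible genes that met it was larger in the lower ranges.

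Member means in SB525334 slices ran from 0.00884 to 0.790 CPM, with a median of 0.372 CPM. The ratio of the SB525334 mean to the vehicle mean had a median of 0.137 and ran from 0.00192 to 0.431. It was under 0.05 for 26 members, from 0.05 to 0.1 for 20, from 0.1 to 0.25 for 64 and from 0.25 to 0.5 for 19. Over all 12385 eligible genes the median ratio was 0.767. These ratios use CPM by library total, without the TMM scaling factors of the edgeR fit described below. Those factors had a median of 1.126 in the vehicle and 0.836 in the SB525334 libraries, and the part of scaling in the ratios was not tested. With TMM-scaled CPM, 30 members reached 1 CPM or more in an SB525334 library. By the authors' log2 CPM, 61 members did. In the edgeR fit described below, 34.8% of all genes tested were lower with SB525334 than with vehicle and 38.2% were higher, and nothing is read from this for members that the same contrast chose. "Silenced" means here below 1 CPM and not at 0: 42 members had 0 counts in at least 1 SB525334 library, and 0 members had 0 counts in all 9. A 0 in at least 1 SB525334 library was met in 0.476% of the eligible genes, which were not matched to the members for vehicle level.

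The rule has sharp edges. The lowest vehicle values among members were 1.018, 1.0213 and 1.0218 CPM, and the nearest genes outside had vehicle minima of 0.998, 0.998 and 0.995 CPM. On the other side, the highest SB525334 values among members were 0.996, 0.992 and 0.992 CPM, and the nearest genes outside reached 1.0105, 1.0174 and 1.0229 CPM. A further 41 genes missed the rule through exactly 1 vehicle library and 70 through exactly 1 SB525334 library. SB525334 library 8 was the one that kept out 23 of those 70 genes, library 6 kept out 15 and library 4 kept out 10.

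Applied in the same way to the other groups, the rule gave 771 genes under 1 CPM in every sham library, 4 in every Sora library and 8 in every Nint library. The opposite switch, from under 1 CPM in every vehicle library to 1 CPM or more in every library of the other group, was made by 10 genes with SB525334, 43 in sham, 2 with Sora and 2 with Nint. These numbers share the vehicle libraries and are given side by side without a test.

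**Figure D1:**
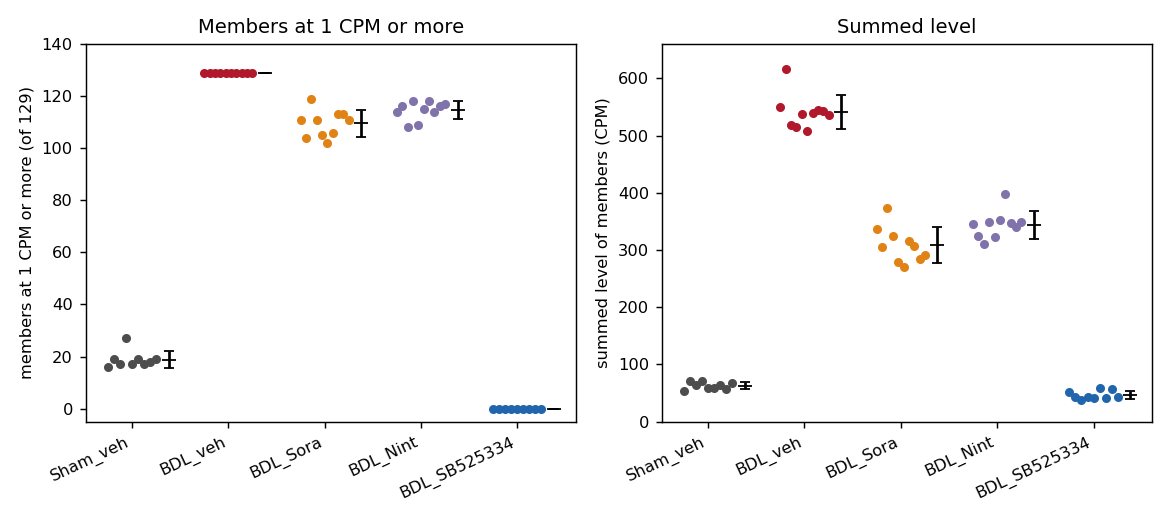
Values of the 129 members in each of the 48 libraries by group (points), with the mean ± SD of each group. Vehicle libraries are all at 129 members and SB525334 libraries all at 0 by the rule, while Sora and Nint libraries keep 102 to 119 members at 1 CPM or more and sham libraries 16 to 27.

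In sham slices most members were near the detection floor. The number of members at 1 CPM or more was 18.8 ± 3.27 per sham library (SD, n = 9), with a lowest value of 16, a median of 18 and a highest of 27. The counts of these genes summed to 53.0 to 70.7 CPM per sham library, 508 to 617 CPM per vehicle library and 38.7 to 58.1 CPM per SB525334 library. The sums in the sham libraries lay far below those of the vehicle libraries and overlapped those of the SB525334 libraries. The level of the median member did not overlap: it was 0.116 to 0.209 CPM in the sham and 0.270 to 0.451 CPM in the SB525334 libraries.

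With Sora, 109.5 ± 5.17 members per library (SD, n = 10) were at 1 CPM or more, and with Nint 114.5 ± 3.47 (SD, n = 10). Their summed levels were 308.8 ± 31.0 CPM with Sora and 343.8 ± 23.9 CPM with Nint, against 540.9 ± 30.1 CPM in the vehicle libraries (SD, n = 10 each). The highest library sum was 373.7 CPM with Sora and 398.5 CPM with Nint, both below the lowest vehicle sum of 508 CPM. The sum is led by the few members of highest count. The level of the median member, which is not, was 1.52 to 2.08 CPM across the Sora libraries, 1.86 to 2.20 CPM across the Nint libraries and 2.25 to 2.61 CPM across the vehicle libraries.

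The SB525334 libraries differed in mapping. The share of reads not uniquely mapped, in the deposited quality metrics, was 9.85 to 11.27% in libraries 1, 6 and 8. It was 13.42 to 20.85% in the other 6, 8.1 to 8.89% in the vehicle and 10.17 to 12.66% in the sham libraries. The mitochondrial share was 2.19 to 4.49% with SB525334, 2.02 to 2.46% in sham and 1.33 to 1.54% with vehicle, and the intron share 25.98 to 33.11%, 24.36 to 31.06% and 33.74 to 36.76%. In both groups where the members were low, the ranges of all 3 measures lay apart from those of vehicle, and their part in those levels was not tested. In libraries 1, 6 and 8 the median member was at 0.404 to 0.451 CPM and the members summed to 51.2 to 58.1 CPM. In the other 6 the median member was at 0.270 to 0.318 CPM and the sum was 38.7 to 42.9 CPM. The members were thus lower in the SB525334 libraries with more reads not uniquely mapped. Of the 129 members, 89 had a higher mean in libraries 1, 6 and 8 than in the other 6. The same share over the eligible genes was not counted, so this is not read as a trait of the members. Without those 3 libraries the rule took in 244 genes, a number that leaving out libraries can only keep or raise.

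**Figure D2:**
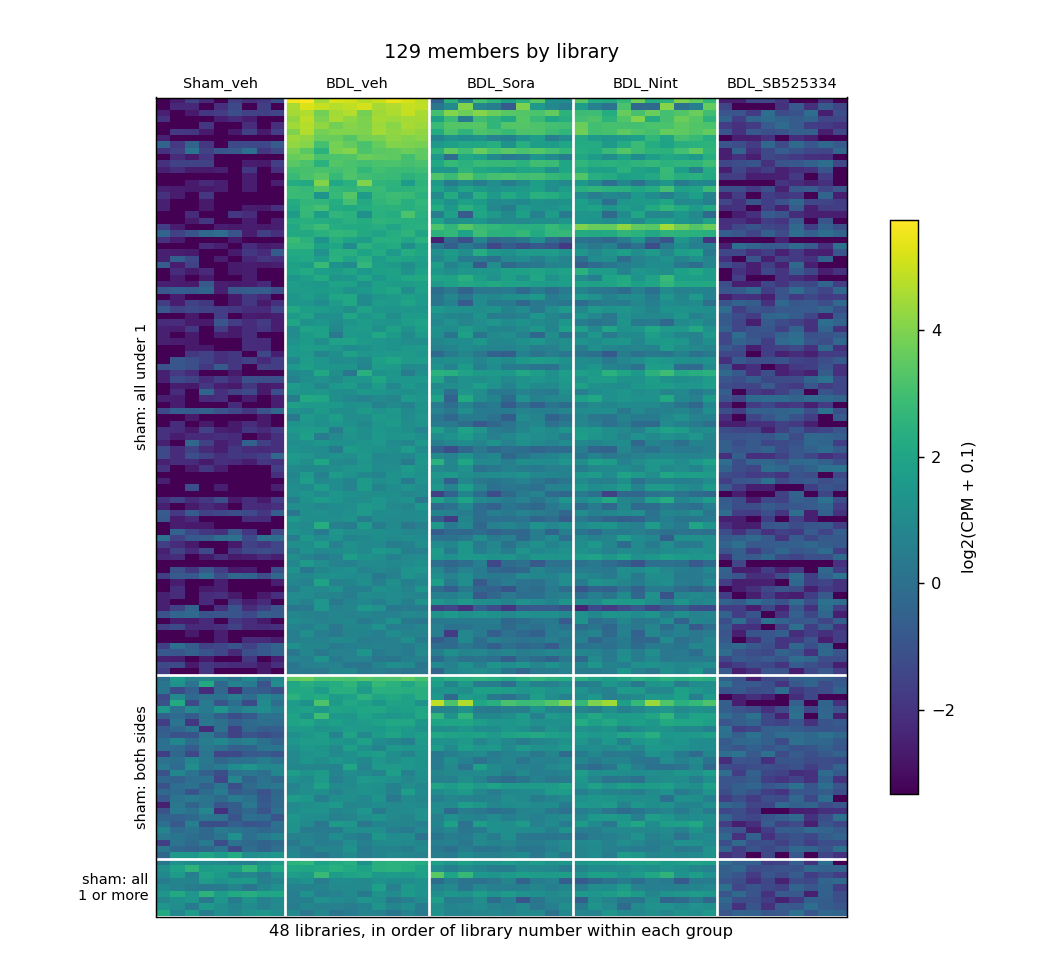
Levels of the 129 members (rows) in the 48 libraries (columns), as log2(CPM + 0.1), with rows in 3 classes by their sham level and ordered by vehicle mean within each. The class of 91 members is dark in sham and SB525334 and bright in the other 3 groups, whereas the class of 9 members is dark with SB525334 only.

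By their level in sham slices the members fell into 3 classes. Under 1 CPM in every sham library were 91 members (70.54%), against 6.22% of the eligible genes. A further 29 members (22.48%) lay on both sides of 1 CPM, against 7.91% of the eligible genes. The remaining 9 members (6.98%) were at 1 CPM or more in every sham library, the state of 85.9% of the eligible genes. The eligible genes were not matched to the members for level: their median vehicle mean was 27.9 CPM, against 2.38 CPM. A gene nearer 1 CPM falls below it with a smaller change, so these shares are a description.

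The 91 members low in sham had a median sham mean of 0.0815 CPM, a median vehicle mean of 2.48 CPM and a median SB525334 mean of 0.308 CPM. Their sham means thus lay mostly under the 3-count floor, which was 0.173 to 0.221 CPM in the sham libraries. For 82 of the 91 the SB525334 mean was above the sham mean, and for 9 it was below. In 19 of the 91, every SB525334 library was above every sham library, and these were the only such members, against 23.9% of the eligible genes. The rule used the SB525334 libraries and held each under 1 CPM, so these differences of means were not tested. Sham levels were also mostly under the floor.

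The 29 members that straddled 1 CPM in sham had median means of 0.828 CPM in sham, 2.26 CPM with vehicle and 0.430 CPM with SB525334. In 27 of the 29 the SB525334 mean was below the sham mean. For 7 of them every SB525334 library was below every sham library. With the 9 members described next this makes 16, against 20.4% of the eligible genes.

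The 9 members at 1 CPM or more in every sham library had sham means of 1.52 to 3.94 CPM and SB525334 means of 0.359 to 0.597 CPM. That every SB525334 library was below every sham library in these 9 follows from the thresholds. Their median vehicle mean was 2 CPM against 2.05 CPM in sham, but single members went both ways, with ratios of the sham to the vehicle mean from 0.398 to 2.05. These 9 genes were thus present in slices without ligation, and below 1 CPM in the SB525334 slices.

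Over all members, the SB525334 mean was below the sham mean in 45 (34.88%), against 52.3% of the eligible genes. The sham mean was below the vehicle mean in 123 members (95.35%), against 62.4% of the eligible genes. The other 6 had sham means of 1.892 to 3.939 CPM and vehicle means of 1.383 to 2.013 CPM. Counts of 0 were met in at least 1 sham library for 71 members, against 3.12% of the eligible genes. In every sham library they were met for 2 members, against 0.0162%, and these 2 were the only such genes among those eligible. The shares of 0 counts were not matched for vehicle level, which was lower in the members.

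Ligation itself was tested between vehicle and sham slices by edgeR's quasi-likelihood test with Benjamini-Hochberg adjustment over 14775 genes, calling genes at an adjusted p under 0.05. The vehicle libraries in this test are those the rule used, and asking for 1 CPM or more in each of them favours a higher level with vehicle, which the genes of the background were not selected for. The shares below are therefore a description. All 129 members passed the filter on low counts, which their vehicle level ensures. Higher with ligation were 117 members (90.7%), against 40.0% of all genes tested, and lower were 4 (3.10%), against 42.2%. The median log2 difference was 3.73 over the members and -0.05 over all genes tested. In 107 members (82.95%) every sham library was below every vehicle library, against 38.8% of the eligible genes. By sham class, 25 of the 29 members on both sides of 1 CPM were called higher and 1 lower, and of the 9 present in every sham library 1 was called higher and 3 lower. In the class of 91 the thresholds put every sham library below every vehicle library. That these 91 are among the 107, and that all 91 were called higher, therefore says nothing further.

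**Figure D3:**
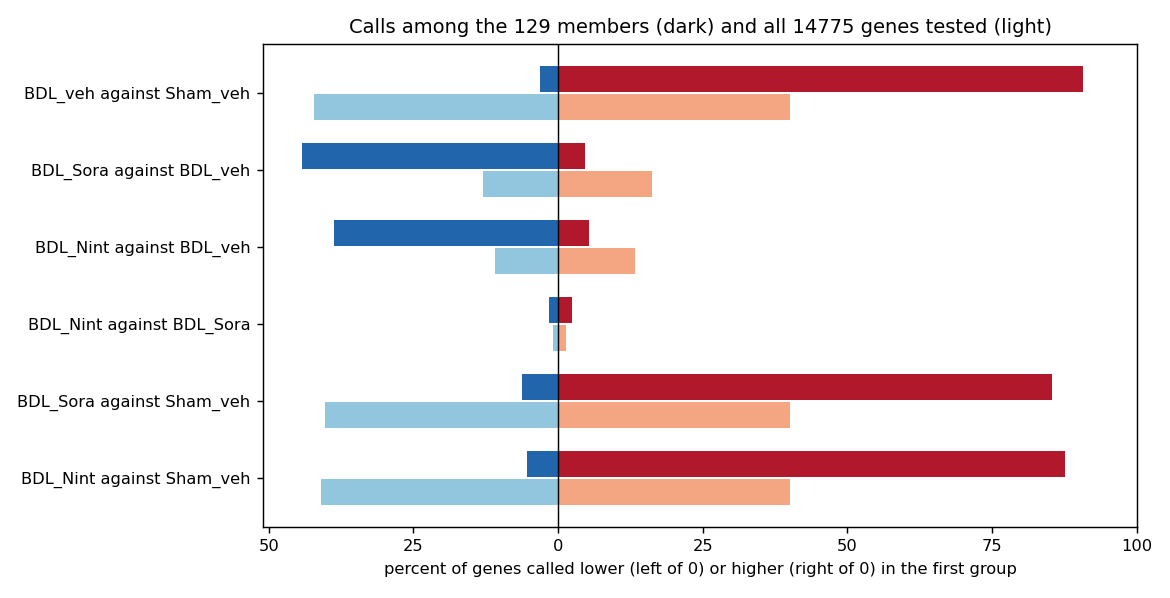
Percent of the 129 members (dark bars) and of all 14775 genes tested (light bars) called higher or lower in each comparison by edgeR's quasi-likelihood test. Members were called higher in 90.7% with ligation and lower in 44.2% with Sora and 38.8% with Nint, against 40.0%, 13.0% and 10.9% of all genes.

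Part of the members were lower with Sora and Nint than with vehicle. The members were chosen for low SB525334 values, so their levels do not compare the strength of the compounds. Against vehicle, 57 members (44.2%) were lower with Sora, where 13.0% of all genes tested were, and 6 (4.65%) were higher, where 16.3% of all genes were. With Nint, 50 members (38.8%) were lower, against 10.9% of all genes, and 7 (5.43%) were higher, against 13.3%. With scaling by total counts, 2 members in place of 6 were higher with Sora. The median log2 difference of the members was -0.51 with Sora and -0.35 with Nint, and 0.02 over all genes in both comparisons. Both comparisons use the vehicle libraries that chose the members, so a member with a high vehicle value by chance would also look lower in them.

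In the scale of CPM, the ratio of the Sora mean to the vehicle mean had a median of 0.674 and ran from 0.123 to 3.25. For Nint the median was 0.767, with a range of 0.163 to 2.78. The ratio was under 0.5 for 36 members with Sora and 29 with Nint. The mean was below that of vehicle in 104 members with Sora (80.62%), against 58.6% of the eligible genes, and in 94 with Nint (72.87%), against 55.0%. Every Sora library was below every vehicle library in 26 members (20.16%), against 6.56% of the eligible genes. The same held with Nint in 23 members (17.83%), against 5.30%. The reverse, every library above every vehicle library, held for 1 member with Sora, against 2.25% of the eligible genes, and for 1 with Nint, against 3.07%.

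Most members stayed at 1 CPM or more with both multikinase inhibitors. At 1 CPM or more in every library were 75 members with Sora (58.14%) and 82 with Nint (63.57%), the state of 97.8% and 98.2% of the eligible genes. In all 20 libraries of both groups this held for 66 members (51.16%), against 97.2%. On both sides of 1 CPM were 53 members with Sora, against 2.21% of the eligible genes, and 46 with Nint, against 1.78%. Most eligible genes had a higher vehicle level than the members, and these shares were not matched for it. No member had a count of 0 in any Sora or Nint library, where 0.0162% of the eligible genes did in each group. The remaining member, the same gene for both, was under 1 CPM in every Sora and every Nint library, a state met in 0.0323% and 0.0646% of the eligible genes. Its mean was 1.672 CPM with vehicle, 0.3531 CPM with Sora, 0.3346 CPM with Nint, 0.2758 CPM with SB525334 and 0.254 CPM in sham.

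The members of highest vehicle level had the lowest median ratios with Sora and Nint, while single members of the ranges overlapped. Among the 10 members at 10 CPM or more, the median ratio was 0.268 with Sora and 0.379 with Nint, and 9 and 10 of them were called lower. In the 11 members from 5 to 10 CPM the medians were 0.474 and 0.513, with 9 called lower in each. From 2 to 5 CPM they were 0.685 and 0.750, with 33 and 28 of 74 called lower. Under 2 CPM they were 0.845 and 0.957, with 6 and 3 of 34 called lower. The vehicle mean enters both the range and the ratio, and genes of higher count give a test more power. The rule also asks for a larger fall with SB525334 from a higher vehicle level. This order is therefore a description.

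**Figure D4:**
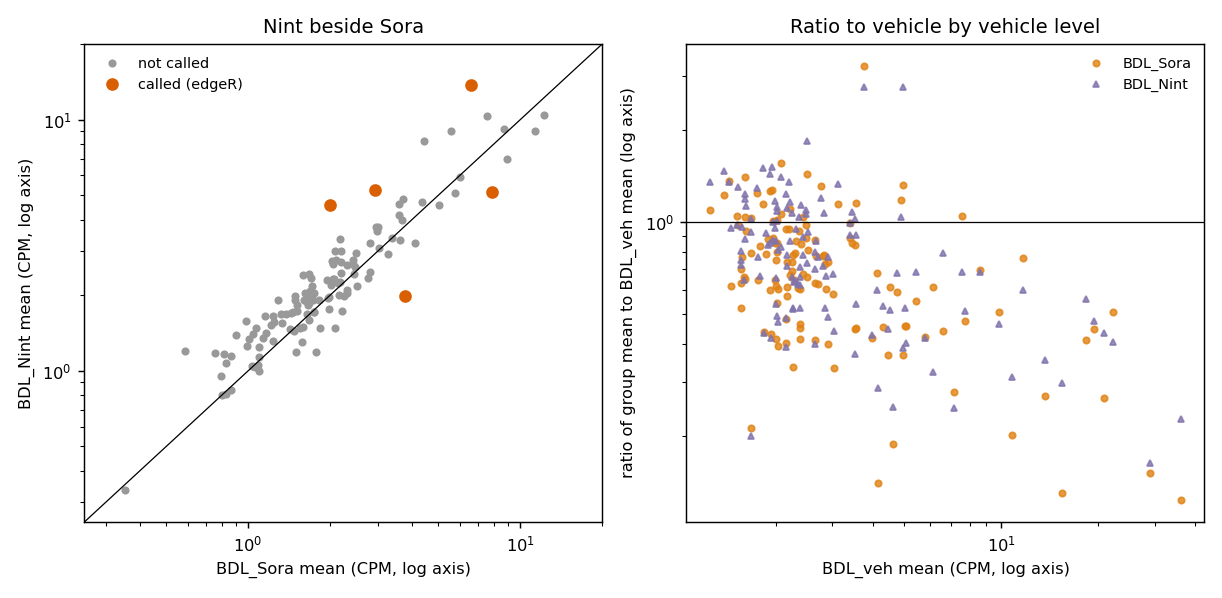
Left, mean CPM with Nint against mean CPM with Sora for the 129 members on log axes, with the 5 members called different between them marked. Right, the ratio of the Sora and Nint means to the vehicle mean against the vehicle mean: median ratios are lowest at the right, at 0.268 and 0.379 for the 10 members at 10 CPM or more.

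By sham class, 45 of the 91 members low in sham were called lower with Sora, against 13.0% of all genes tested, and 39 with Nint, against 10.9%, again relative to the vehicle libraries that chose the members. The numbers were 9 and 8 of the 29 members that straddled 1 CPM, and 3 and 3 of the 9 present in every sham library. Median ratios to vehicle in the 3 classes were 0.634, 0.801 and 0.835 with Sora and 0.714, 0.929 and 0.865 with Nint. Whether the classes differ in these ratios was not tested.

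Against sham, both groups of treated slices still had most members high. These tests contrast no library of the rule, though the rule's libraries share in the estimate of spread, the scaling and the filter of the fit. With Sora, 110 members (85.3%) were higher than in sham, against 40.1% of all genes, and 8 (6.20%) were lower, against 40.3%. With Nint, 113 (87.6%) were higher, against 40.0%, and 7 (5.43%) were lower, against 40.9%. With scaling by total counts, 5 and 4 members were lower. The median log2 difference was 3.13 with Sora and 3.14 with Nint. Of the 9 members present in every sham library, a class chosen on the sham values, which favours a lower level against them, 6 were called lower than sham with Sora and 5 with Nint.

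Nint and Sora were called different in few members. This comparison, too, sets no library of the rule against another, within the same fit of all 48 libraries. Higher with Nint were 3 members (2.33%), against 1.37% of all genes, and lower were 2 (1.55%), against 0.948%. These shares are near those of all genes. DESeq2 called 7 members higher with Nint, and without Sora library 6 edgeR called 0 lower. The log2 differences ran from -0.95 to 1.17 with a median of 0.16 and a median standard error (SE) of 0.212, and 84 were positive. At an unadjusted p under 0.05 there were 22 members. A difference that misses the threshold does not show equal levels.

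**Figure D5:**
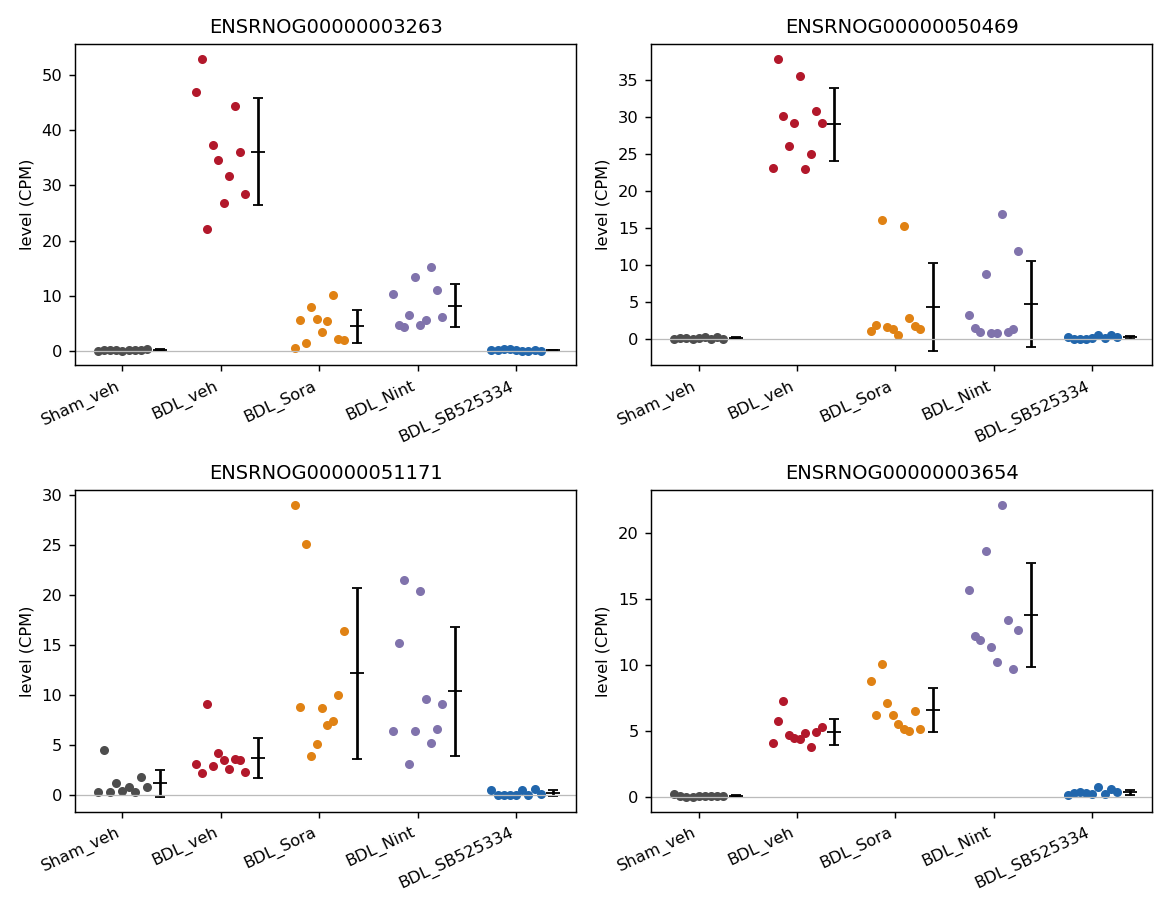
CPM of 4 members in each library by group (points), with the mean ± SD of each group. The 2 members in which vehicle was highest lie between 22.15 and 53.0 CPM there and at or below 0.498 CPM in every SB525334 library, and the other 2 have their highest group means with Sora or Nint.

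Values of 4 members follow (3 of them with counts that were partly estimated, as given at the end), 2 with a high vehicle level that fell with Sora and Nint and 2 that rose. They were picked after their values were seen: the 2 of highest vehicle mean and the 2 of highest Sora and Nint ratio to vehicle. Their p-values in comparisons with these groups rest on the values that picked them, and are given as a description. ENSRNOG00000003263, the member of highest vehicle mean, lay between 22.15 and 53.0 CPM with vehicle (median 35.4) and between 0 and 0.349 CPM in sham (median 0.137). It reached 0.603 to 10.05 CPM with Sora (median 4.37), 4.38 to 15.3 CPM with Nint (median 6.29) and 0 to 0.292 CPM with SB525334 (median 0.0712). Every Sora and Nint library was below every vehicle library and above every sham and SB525334 library. By edgeR, its log2 difference was 7.53 for vehicle against sham (SE 0.453, adjusted p = 4.24e-20), -2.98 for Sora against vehicle (SE 0.293, adjusted p = 5.46e-11) and -2.11 for Nint against vehicle (SE 0.28, adjusted p = 8.22e-08). Nint against Sora gave 0.87 (SE 0.288, edgeR adjusted p = 0.0978) and was not called.

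ENSRNOG00000050469 had values from 22.97 to 37.85 CPM with vehicle (median 29.15), 0 to 0.295 CPM in sham (median 0.105) and 0 to 0.498 CPM with SB525334 (median 0.154). With Sora it ran from 0.486 to 15.99 CPM (median 1.71) and with Nint from 0.750 to 16.87 CPM (median 1.42). These 2 groups were uneven: Sora libraries 3 and 7 were at 15.99 and 15.22 CPM, and the other 8 were at 0.49 to 2.80 CPM. Nint libraries 4, 7 and 10 were at 8.77, 16.87 and 11.93 CPM, and the other 7 were at 0.75 to 3.30 CPM. All of them were below the lowest vehicle library. The log2 difference by edgeR was -2.68 for Sora against vehicle (SE 0.510, adjusted p = 6.14e-05) and -2.64 for Nint against vehicle (SE 0.512, adjusted p = 8.93e-05).

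ENSRNOG00000051171 was higher with both multikinase inhibitors than with vehicle. Its values were 2.24 to 9.14 CPM with vehicle (median 3.33), 3.98 to 29.04 CPM with Sora (median 8.78) and 3.17 to 21.5 CPM with Nint (median 7.89), so the groups overlapped. In sham they were 0.307 to 4.56 CPM (median 0.866). With SB525334 the values were 0 to 0.658 CPM (median 0.0712), and libraries 1, 6 and 8 gave 0.56, 0.58 and 0.66 CPM while the others gave at most 0.14 CPM. The log2 difference by edgeR was 1.77 for Sora against vehicle (SE 0.411, adjusted p = 7.79e-04) and 1.53 for Nint against vehicle (SE 0.410, adjusted p = 0.00411). Vehicle against sham gave 1.29 (SE 0.471, edgeR adjusted p = 0.0113), and without vehicle libraries 3 and 6 it was no longer called.

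ENSRNOG00000003654 was the named member that differed between Nint and Sora. It lay at 0 to 0.221 CPM in sham (median 0.0596), 3.76 to 7.26 CPM with vehicle (median 4.78) and 0.141 to 0.773 CPM with SB525334 (median 0.292). With Sora it was at 4.996 to 10.1 CPM (median 6.20) and with Nint at 9.71 to 22.1 CPM (median 12.4). Every Nint library was above every vehicle library, while the Sora range overlapped both. For Nint the log2 difference by edgeR was 1.49 against vehicle (SE 0.162, adjusted p = 6.36e-10) and 1.03 against Sora (SE 0.159, adjusted p = 1.49e-04). Sora against vehicle gave 0.46 (SE 0.162, edgeR adjusted p = 0.0262), a call that was lost without vehicle library 8 or Sora library 1 or 3, and with scaling by total counts.

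Spread between libraries followed the level. The median coefficient of variation over the members was 21.98% with vehicle, 27.9% with Sora, 27.2% with Nint, 53.95% with SB525334 and 66.6% in sham. Most members rested on few counts in the last 2 groups, and differences between sham and SB525334 levels were not tested. Among libraries, Sora library 3 gave the highest Sora value in 36 members and Nint library 7 the highest Nint value in 29.

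Of the 129 members, 14 (10.85%) had counts that were not whole in at least 1 library, against 21.5% of the eligible genes. Such counts arise where reads shared between genes were divided by the estimate, and the levels of those 14 are less certain. They include ENSRNOG00000050469, with such counts in 85.4% of libraries, ENSRNOG00000051171 in 75% and ENSRNOG00000003263 in 54.2%.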

How the data were processed

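RNA of rat liver slices was sequenced in 48 libraries. Per the submitters' processing notes, expected counts were made with RSEM on Rnor_6.0 and edgeR was used. Aligner and annotation were not given in the sources used here. In the deposited count table, 8.02% of the expected counts were not whole (tolerance 1e-06). They were rounded for tests. The authors' log2 CPM table of protein-coding genes defined which genes are coding, and its log2 values served as an alternative. The authors' deposited quality metrics gave other alignment values, such as the percent of reads not uniquely mapped. In these metrics, read 1 was antisense for 98.37 to 98.99% of reads. Whether counting used strand is not given in the sources used here.

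CPM by column sum was computed for the rule (threshold 1 CPM). Tests used edgeR 4.0.16 in R 4.3.3: filterByExpr, TMM factors, a robust quasi-likelihood fit of all 48 libraries with 1 coefficient per group, 6 comparisons and Benjamini-Hochberg adjustment over 14775 genes at 0.05. DESeq2 1.42.0, RLE factors, total counts, no filter, a replicate block, a factor for the column in the library name, and leaving out libraries were alternatives. The 0 matched identifiers left the 19 gene lists and the promoter table unused. The rule to name genes by symbol could therefore not be used, and 4 identifiers were picked after their values were seen, 2 that rose and 2 that fell with Sora and Nint. Members and lists were chosen with earlier results of these data known.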

Additional observations from a re-analysis of the deposited data

Results flagged for a closer look

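A library far from the rest of its group, by Dixon's ratio of gap to range, was met in 6 of 33 groups of values examined. The chance rate of about 1 in 20 holds for independent, normally distributed values. These groups share libraries and genes, so 6 of 33 is not set against that rate. Sham library 4 had 27 members at 1 CPM or more. The members summed to 617 CPM in vehicle library 2 and to 398 CPM in Nint library 7. ENSRNOG00000003654 was at 0.221 CPM in sham library 1. ENSRNOG00000051171 was at 9.14 CPM in vehicle library 3 and at 4.56 CPM in sham library 2. Each was the highest of its group.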

How the results depend on the processing

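The number of members was 129 as given, 219 at a threshold of 2 CPM (45 of them among the 129), 94 at 0.5 CPM (30 among the 129), 244 without SB525334 libraries 1, 6 and 8, 146 without vehicle libraries 3 and 6, 89 with TMM-scaled CPM, and 75 with the authors' log2 CPM, of which 68 were among the 129. Leaving out 1 library at a time gave 130 to 152, and leaving out libraries can only keep or raise this number. Of 84 counts of called members under alternatives that left all libraries in or left out vehicle libraries 3 and 6, 78 stayed within 1.5 times. The others were members higher with Sora than vehicle (6, and 2 with total counts), higher with Nint than Sora (3, and 7 with DESeq2), lower with Nint than Sora (2, and 1 with no filter and 0 with the library-name column as a factor, where 21 members had an unadjusted p under 0.05 by edgeR), lower with Sora than sham (8, and 5 with total counts) and lower with Nint than sham (7, and 4 with total counts). With total counts the median of all genes shifted to 0.30 for vehicle against sham.

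With 1 library left out at a time, members higher with Nint than Sora numbered 3 to 5 (5 without Sora library 3) and lower 0 to 2 (0 without Sora library 6). For vehicle against sham the ranges were 117 to 118 higher and 4 lower, for Sora against vehicle 5 to 7 and 54 to 61, for Nint against vehicle 7 to 9 and 47 to 51, for Sora against sham 108 to 111 and 6 to 8, and for Nint against sham 112 to 113 and 7 to 8. ENSRNOG00000051171 for vehicle against sham was 0.997 (edgeR adjusted p = 0.0573) without vehicle libraries 3 and 6. ENSRNOG00000003654 for Sora against vehicle was 0.402 with total counts (edgeR adjusted p = 0.0596) and 0.373 to 0.543 with 1 library left out. Where no construction shows it, the cause was not tested.

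With a replicate block, each count of called members stayed within 1.5 times its value in the main fit. Those values were 117 and 4, 6 and 57, 7 and 50, 3 and 2, 110 and 8, and 113 and 7 higher and lower. The order is vehicle against sham, Sora and Nint against vehicle, Nint against Sora, Sora and Nint against sham. Deviations of 93 same-numbered pairs had a median r of 0.013, against 0.00493 for 828 other pairs, and 4 of 48 libraries correlated best with their own number. Same-numbered pairs ran from -0.281 to 0.55, with 25 over 0.1. No general pairing by number was seen, but this cannot show that no libraries share an animal.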
